A study of Mus musculus with 6 samples.

Results

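The 8 genes described here encode homeobox and basic helix-loop-helix (bHLH) transcription factors that give the upper and lower jaw their identity: Gsc, Hand1, Hand2, Gbx2, Alx4, Msx1, Msx2 and Pou3f3. They were found by symbol among 49492 gene rows, and all 8 were present. Their RNA was compared between soft palates of mouse embryos without Dlx5 (genotype Dlx5-/-, 3 libraries) and of wild-type control embryos (3 libraries), all at stage E14.5, in the later part of mouse gestation. The Dlx5-/- genotype is given with no driver or tissue restriction, and neither the strain nor the number of embryos behind a library is stated. The series concerns how neural crest cells and myoblasts interact while the oropharynx forms.

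In the pharyngeal arches of the early mouse embryo, endothelin from the epithelium reaches its receptor Ednra on neural crest cells of the lower part of each arch and turns on the homeobox genes Dlx5 and Dlx6. These in turn activate lower jaw genes, among them Hand2, Gsc, Gbx2 and Alx4, and hold down upper jaw genes such as Pou3f3. Msx1 and Msx2 respond to bone morphogenetic proteins (BMPs) near the tip of the arches, and both also act in palate, teeth and skull bones. The samples here are later and are not arches but posterior palate, so they address whether the same genes differed in that tissue without Dlx5.

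None of the 8 genes was called as changed. Pou3f3, the upper jaw gene, measured 2.13 times as much in Dlx5-/- palates as in controls, and Gsc 1.597 times as much, with every Dlx5-/- library above every control library for both. The lower jaw genes Hand2 and Hand1 were high in 1 of 3 Dlx5-/- libraries and not in the other two. Alx4, Msx1 and Msx2 overlapped between groups, and Gbx2 was close to the limit of detection in both.

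Of the 8 genes, 6 passed the filter on low counts, which asked for a mean of at least 1 CPM (read counts scaled to a common library size with TMM factors) over the 6 libraries. Each of these 6 averaged over 1 CPM in both groups. Hand1 and Gbx2 did not pass. The test was edgeR's quasi-likelihood test over all 16218 genes that passed, with Benjamini-Hochberg adjustment at 0.05. By this test 0 of the 6 genes passed, against 0.00617% of all genes, which was Dlx5 alone. At an unadjusted p under 0.05 there were 2 of 6, both higher, where 5.6% of all genes were higher, and 0 lower, where 7.23% were. Groups did not overlap, with Dlx5-/- higher, for 2 of 6, against 9.48% of all genes, and with Dlx5-/- lower for 0 of 6, against 9.71%. Without Dlx5-/- replicate 3 again 0 of 6 passed, against 1.01% of all genes. DESeq2 called 1 of the 6, Pou3f3, against 3.43% of the 14614 genes to which it gave an adjusted p, and limma-trend called 0 of the 6, against 0.598% of all genes.

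Libraries held between 6891798 and 11922442 estimated counts. Dlx5 measured 0.829, 1.63 and 1.28 CPM in Dlx5-/- replicates 1, 2 and 3 and 26.1, 15.7 and 16.2 CPM in controls 1, 2 and 3 (log2 fold change -3.93, SE 0.32; adjusted p = 0.0205, edgeR), so each library matched its label. Dlx5-/- replicate 3 stood apart from the other libraries, with a mean correlation of 0.959 against 0.970 to 0.976. It also held brain transcripts: 12 brain markers summed to 88.1, 76.6 and 294 CPM in Dlx5-/- replicates 1, 2 and 3 and to 85.4, 102 and 137 CPM in controls 1, 2 and 3. Of the 12 markers, 9 passed the filter, and none was at 0 in all libraries. Palate mesenchyme markers, chosen for the labelled tissue, summed to 714 to 746 CPM in Dlx5-/- libraries and 619 to 690 CPM in controls, with all 10 detected. Of the 10, 5 had estimates above 0 and 5 below (median log2 fold change -0.04). Prrx1, the highest of them, averaged 263 CPM in Dlx5-/- libraries and 193 CPM in controls. Sensory ganglion markers summed to 825, 790 and 545 CPM in Dlx5-/- libraries and 1183, 1396 and 1214 CPM in controls. For 8 of the 10, all Dlx5-/- libraries lay below all controls, as they did for 9.71% of all genes. Of 9 skeletal muscle markers tested, all 9 had estimates above 0 (median log2 fold change 1.02), as had 8520 of all 16218 genes. Groups did not overlap, with Dlx5-/- higher, for 2 of the 9, against 9.48% of all genes. The 10 muscle markers summed to 1274, 3668 and 2177 CPM in Dlx5-/- libraries and 1380, 1937 and 1108 CPM in controls, so these sums overlapped. None of these markers passed the test with all libraries; without Dlx5-/- replicate 3 the sensory ganglion markers Avil and Prph did, both lower (adjusted p = 0.0149 and 0.0158, edgeR). The part of the ganglion and muscle markers in the values of the jaw genes was not tested. In bulk tissue, fewer cells of a type and less RNA per cell cannot be told apart.

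The DNA just before the start of Pou3f3, Hand2 and Gsc is shown because the results turn on these 3 genes. The sequences are those of RefSeq (GRCm38.p6), 5′ to 3′ on the strand of each gene, and end before the annotated start of its transcript. They cover chr1:42695518-42695767 (plus strand) for Pou3f3, chr8:57320733-57320982 (plus strand) for Hand2 and chr12:104473331-104473486 (minus strand) for Gsc. Capitals mark TAATTA, the core bound by many homeodomain proteins, Dlx proteins among them, which reads the same on both strands.
Pou3f3: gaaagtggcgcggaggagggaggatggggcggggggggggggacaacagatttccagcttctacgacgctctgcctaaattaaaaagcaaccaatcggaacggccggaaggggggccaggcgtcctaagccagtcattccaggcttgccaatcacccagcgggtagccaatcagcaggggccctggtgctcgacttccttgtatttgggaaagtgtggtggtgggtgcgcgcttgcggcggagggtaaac
Hand2: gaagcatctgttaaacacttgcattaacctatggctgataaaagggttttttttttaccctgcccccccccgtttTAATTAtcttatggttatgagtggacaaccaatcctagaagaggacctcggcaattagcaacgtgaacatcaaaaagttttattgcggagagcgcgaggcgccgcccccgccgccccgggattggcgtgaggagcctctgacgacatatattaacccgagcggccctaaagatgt
Gsc: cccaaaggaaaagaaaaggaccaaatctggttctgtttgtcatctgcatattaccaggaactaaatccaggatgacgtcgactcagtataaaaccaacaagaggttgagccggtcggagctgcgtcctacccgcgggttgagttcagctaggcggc
TAATTA occurred 1 time in the Hand2 sequence, and the Pou3f3 and Gsc sequences held none. RefSeq gave promoter windows of 300 bases for 6 of the 8 genes, and 2 of these, Hand2 and Msx2, held TAATTA, against 5.29% of 32851 windows. A match is a description of the letters in this window, not of a binding site.

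Pou3f3 encodes a POU-domain homeobox factor of the upper jaw and of the developing brain and kidney, and lies on chromosome 1 from 42695768 to 42703176, plus strand (GRCm38). It measured 64.9, 61.7 and 67.1 CPM in Dlx5-/- replicates 1, 2 and 3, against 46.6, 20.1 and 24.1 CPM in controls 1, 2 and 3. The Dlx5-/- libraries lay close together and above all controls, among which control 1 was the highest. The means were 64.6 ± 2.69 CPM in Dlx5-/- palates and 30.3 ± 14.3 CPM in controls (SD, n = 3 each). On the log2 scale this was a difference of 1.09 (SE 0.27; 95% confidence interval 0.47 to 1.72), which did not pass (adjusted p = 0.133, edgeR). An exact two-sided permutation test over the libraries gave p = 0.1, the smallest that 3 against 3 allows.

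Leaving out control 1 changed the call for Pou3f3. Without it the log2 fold change was 1.56 and passed (adjusted p = 0.0114, edgeR), within a range of adjusted p from 0.000292 to 0.395 over all alternatives. DESeq2 also called Pou3f3 higher (log2 fold change 1.09; adjusted p = 0.00106). Without Dlx5-/- replicate 3, the library with brain transcripts, the log2 fold change was 1.06 (adjusted p = 0.130, edgeR), so the estimate was nearly as large without that library. The summed brain markers were lowest in Dlx5-/- replicate 2, at 76.6 CPM, and Pou3f3 was 61.7 CPM there.

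Pantr1, a noncoding RNA gene transcribed away from Pou3f3 on the opposite strand, starts 925 bases from it. Pantr1 measured 10.3, 9.89 and 11.5 CPM in Dlx5-/- replicates 1, 2 and 3 and 5.18, 1.87 and 3.31 CPM in controls 1, 2 and 3. As for Pou3f3, the groups did not overlap and control 1 was the highest control. For Pantr1 the estimate was a log2 fold change of 1.63 (SE 0.34; adjusted p = 0.0860, edgeR), and DESeq2 called it (adjusted p = 0.00101). The use of strand in counting was not stated, but the 2 annotated genes do not overlap.

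Pou3f4, an X-linked paralogue of Pou3f3 that acts in the mesenchyme around the inner ear and in the brain, showed the same order of groups. It measured 54.4, 32.2 and 42.02 CPM in Dlx5-/- libraries and 20.5, 6.74 and 3.45 CPM in controls. It differed by 2.05 on the log2 scale (SE 0.50; adjusted p = 0.133, edgeR). Pou3f2, a further paralogue known from brain, was much lower, at 2.01, 0.978 and 2.72 CPM in Dlx5-/- libraries and 0.972, 0.974 and 0.719 CPM in controls (log2 fold change 1.09; adjusted p = 0.398, edgeR). Among 10 other upper jaw genes 9 passed the filter, and 0 of them passed the test in either direction. Irx5, an Iroquois homeobox gene, was the one with the smallest p, at 24.9, 19.1 and 26.2 CPM in Dlx5-/- libraries and 18.4, 7.47 and 10.3 CPM in controls (log2 fold change 0.96; adjusted p = 0.221, edgeR). Its groups did not overlap, and control 1 was again the highest control. The median log2 fold change of the 9 was -0.03, against 0.01 for all genes tested.

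**Figure D1:**
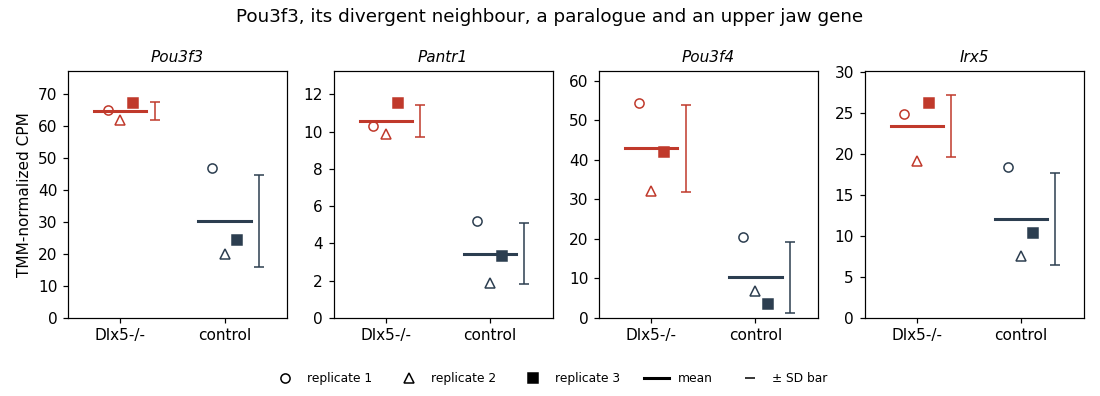
TMM-normalized CPM (y axes, from 0) of Pou3f3, its divergent neighbour Pantr1, the paralogue Pou3f4 and the upper jaw gene Irx5 in 3 Dlx5-/- and 3 control libraries. Symbols mark replicates, thick lines means and thin bars the SD; in each panel all Dlx5-/- libraries lie above all controls, and control 1 is the highest control (46.6 CPM for Pou3f3).

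Gsc encodes goosecoid, a homeobox factor needed for parts of the lower jaw and middle ear in mice. Its locus is chromosome 12, bases 104471209 to 104473330 on the minus strand (GRCm38). Gsc had 78, 85 and 137 counts in Dlx5-/- replicates 1, 2 and 3, which is 9.24, 9.24 and 10.3 CPM. It had 43, 80 and 48 counts in controls 1, 2 and 3, which is 4.64, 6.49 and 6.90 CPM. No library of one group overlapped the other, and the Dlx5-/- side was the higher one. The log2 fold change was 0.68 (SE 0.21; 95% confidence interval 0.20 to 1.16) and did not pass (adjusted p = 0.214, edgeR; exact two-sided permutation p = 0.1). Over all alternatives the estimate stayed between 0.52 and 0.78, with adjusted p from 0.184 to 0.468. In the early arch, Gsc depends on Dlx5 and Dlx6 together; here the estimate without Dlx5 was above 0 with each library left out. Dlx6, the paralogue beside Dlx5, measured 12.4, 16.2 and 16.3 CPM in Dlx5-/- libraries and 14.47, 6.74 and 5.61 CPM in controls, so its groups overlapped (log2 fold change 0.74; adjusted p = 0.407, edgeR). The related genes Dlx1, Dlx2 and Dlx3 had log2 fold changes of 0.44, 0.36 and 0.36 (adjusted p = 0.406, 0.581 and 0.602, edgeR).

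Hand2 encodes a bHLH factor of the lower jaw that also acts in heart, limb and sympathetic neurons. It lies on chromosome 8 from 57320983 to 57324633, plus strand (GRCm38). Hand2 measured 3.32, 5.54 and 23.2 CPM in Dlx5-/- replicates 1, 2 and 3 and 5.18, 5.20 and 6.32 CPM in controls 1, 2 and 3. Dlx5-/- replicate 3 was thus 3.67 times the highest other library, while Dlx5-/- replicate 1 was the lowest of all. Of all genes, 1.67% had at least 2 times as much in Dlx5-/- replicate 3 as in every other library. The log2 fold change was 0.98 with a wide interval (SE 0.63; -0.47 to 2.42; adjusted p = 0.576, edgeR). Without Dlx5-/- replicate 3 it was -0.32 (SE 0.30; adjusted p = 0.724, edgeR), so the direction of Hand2 rests on that library.

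Hand1, the close relative of Hand2 at the tip of the lower jaw, had 1, 0 and 31 counts in Dlx5-/- replicates 1, 2 and 3 and 0 in each control. Its locus is chromosome 11, bases 57828705 to 57832818 on the minus strand (GRCm38). In Dlx5-/- replicate 3 this came to 2.34 CPM. Set against 3 counts over the control group, which a count of 0 allows, the Dlx5-/- group as a whole was at least 9.85-fold higher. All but 1 of those counts came from Dlx5-/- replicate 3. Without that library both groups were at or under 3 counts, and no fold can be given. The limit of 3 counts covers counting error only.

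Both Hand genes were therefore highest in the library that also held brain transcripts. There the astrocyte gene Gfap reached 40.4 CPM and Gad1, an enzyme of inhibitory neurons, 52.7 CPM, 17.0 and 21.2 times their highest other library. Twist2, a bHLH partner of the Hand family that is made in mesenchyme, measured 14.6, 11.6 and 30.4 CPM in Dlx5-/- replicates 1, 2 and 3 and 11.1, 12.3 and 8.91 CPM in controls. Its paralogue Twist1 did not stand out there, at 95.2, 74.2 and 98.4 CPM in Dlx5-/- replicates 1, 2 and 3. In controls Twist1 measured 66.5, 75.1 and 74.9 CPM. The heart is another place of strong Hand expression. Of its genes, Nkx2-5 measured 0, 2.83 and 2.72 CPM in Dlx5-/- replicates 1, 2 and 3 and 0 in each control. Nppa and Gata4 were at 0 in all libraries but Dlx5-/- replicate 3, where they were at 0.226 and 0.151 CPM, no more than the 3 counts that a count of 0 allows. Heart and vessel markers together, 8 genes of which the vessel genes Pecam1, Cdh5 and Kdr gave most of the sum, came to 237, 273 and 233 CPM in Dlx5-/- replicates 1, 2 and 3 and to 286, 287 and 344 CPM in controls. The part of these markers in the Hand values was not tested.

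**Figure D2:**
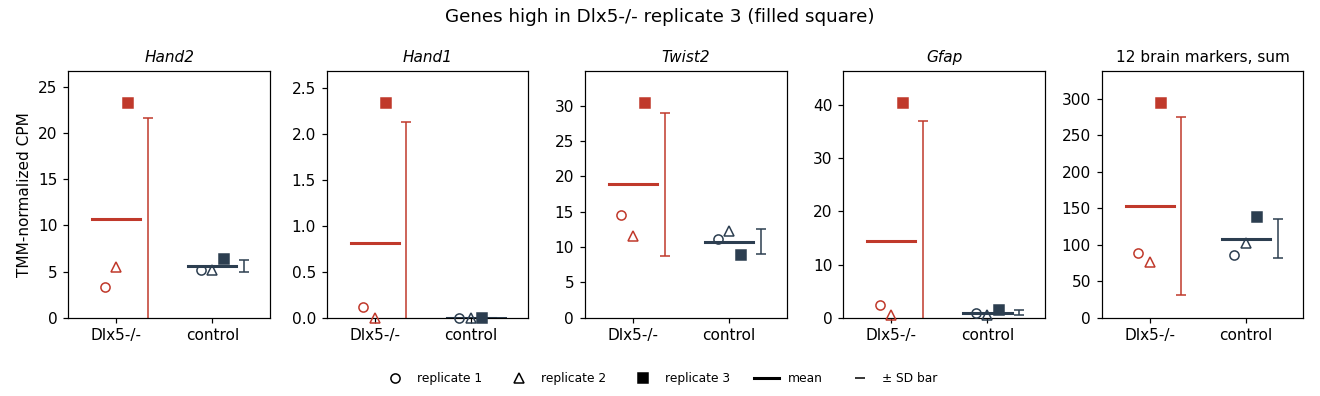
TMM-normalized CPM (y axes, from 0) of Hand2, Hand1, Twist2 and Gfap, and the sum over 12 brain markers, in 3 Dlx5-/- and 3 control libraries. Thick lines are means and thin bars the SD, cut at 0; Dlx5-/- replicate 3 (filled square) is the highest library in every panel, at 23.2 CPM for Hand2.

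Hand2 overlaps the annotated noncoding gene Hand2os1 on the opposite strand over 3251 bases. Hand2os1 itself was not analysed here. The estimated counts of Hand2 were not whole, beyond a tolerance of 0.01, in 4 of 6 libraries, as reads shared between rows give. For Gbx2 this held in 1 library and for the other 6 genes in none. Among 9 bHLH partners and antagonists of the Hand proteins, 0 passed the test. The partners Tcf3 and Tcf12 were the nearest, with log2 fold changes of 0.37 (adjusted p = 0.0940, edgeR) and 0.35 (0.133), and the antagonist Id4 followed at -0.85 (0.195). Tcf3 measured 144, 131 and 148 CPM in Dlx5-/- libraries and 114, 107 and 105 CPM in controls, with no overlap.

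Alx4 encodes a homeobox factor of the front of the face and skull. It lies on chromosome 2 from 93642384 to 93681339, plus strand (GRCm38). It measured 43.8, 44.2 and 21.4 CPM in Dlx5-/- replicates 1, 2 and 3 and 35.2, 33.9 and 37.1 CPM in controls 1, 2 and 3. The controls lay within a narrow range, while Dlx5-/- replicates 1 and 2 were above it and Dlx5-/- replicate 3 below it. The log2 fold change was therefore 0.03 (95% confidence interval -0.53 to 0.60; adjusted p = 0.971, edgeR), and its sign turned with library totals in place of TMM (-0.02). Without Dlx5-/- replicate 3 it was 0.31 (SE 0.09; adjusted p = 0.180, edgeR).

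Msx1, a homeobox factor needed for palate closure and tooth development, varied most among the controls. Its locus is chromosome 5, bases 37820485 to 37824583 on the minus strand (GRCm38). Msx1 measured 15.9, 7.82 and 8.45 CPM in Dlx5-/- replicates 1, 2 and 3 and 8.10, 17.3 and 29.0 CPM in controls 1, 2 and 3. The groups overlapped, with control 1 at the level of Dlx5-/- replicates 2 and 3. Among the 6 genes tested, Msx1 alone had an estimate below 0, with a log2 fold change of -0.76 (SE 0.45; -1.78 to 0.26; adjusted p = 0.532, edgeR). Without control 3 it was -0.27 (adjusted p = 0.8996), and without Dlx5-/- replicate 1 it was -1.14 (adjusted p = 0.397, edgeR).

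Msx2, its paralogue in skull bones, teeth and skin, has its locus on chromosome 13, bases 53466884 to 53473074 on the minus strand (GRCm38). Msx2 measured 32.6, 26.5 and 15.6 CPM in Dlx5-/- replicates 1, 2 and 3 and 19.3, 20.6 and 14.52 CPM in controls 1, 2 and 3. Dlx5-/- replicates 1 and 2 were above all controls, and Dlx5-/- replicate 3 lay within them. The estimate was a log2 fold change of 0.44 (SE 0.26; -0.16 to 1.03; adjusted p = 0.537, edgeR). Without Dlx5-/- replicate 3 it was 0.69 (SE 0.17; adjusted p = 0.113, edgeR). The 11 bone and tooth markers, of which 7 passed the filter, summed to 1942, 3593 and 1121 CPM in Dlx5-/- replicates 1, 2 and 3. In controls the sums were 3142, 2879 and 3777 CPM. Most of each sum was Col1a1 alone, at 1778, 3222 and 1072 CPM in Dlx5-/- replicates and 2807, 2635 and 3064 CPM in controls. The part of these markers in the Msx2 values was not tested.

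Gbx2, a homeobox gene of the lower arch and of the border between midbrain and hindbrain, had 2, 0 and 7 counts in Dlx5-/- replicates 1, 2 and 3. In controls 1, 2 and 3 it had 3, 4.38 and 1.01 estimated counts. Its locus is chromosome 1, bases 89927956 to 89931179 on the minus strand (GRCm38). At these levels, between 0 and 0.528 CPM, a difference between the groups was not detectable.

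**Figure D3:**
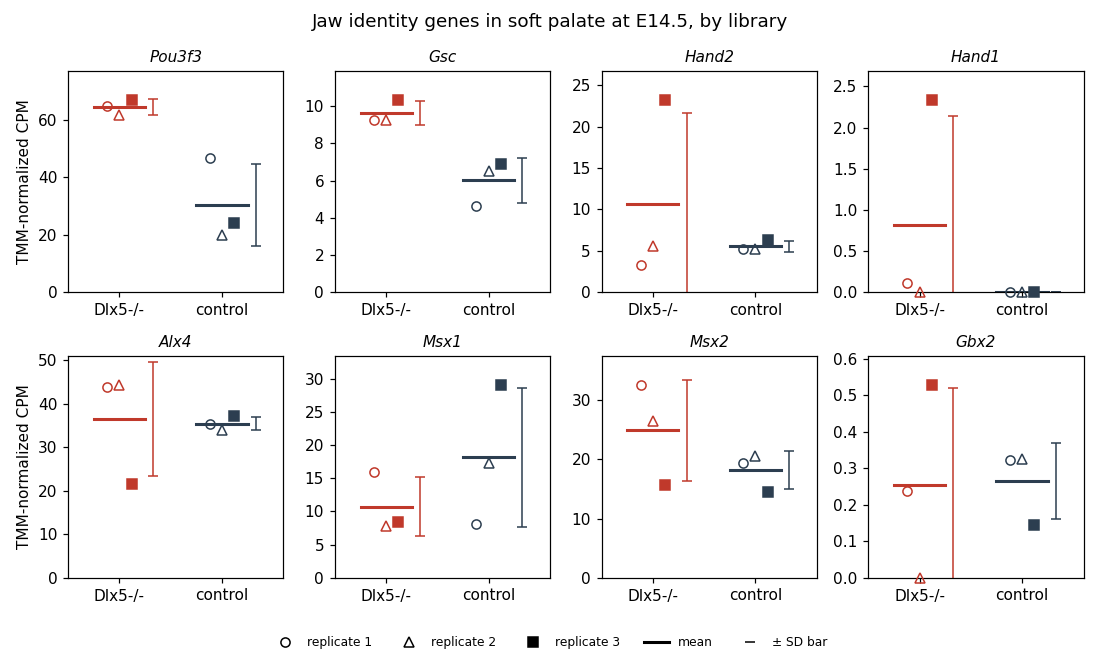
TMM-normalized CPM (y axes, from 0, with their own scale in each panel) of the 8 jaw identity genes in 3 Dlx5-/- and 3 control libraries. Thick lines are means and thin bars the SD, cut at 0; the groups stand apart for Pou3f3 and Gsc, and Dlx5-/- replicate 3 (filled square) stands away from replicates 1 and 2 for Hand2, Hand1, Alx4 and Msx2.

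**Figure D4:**
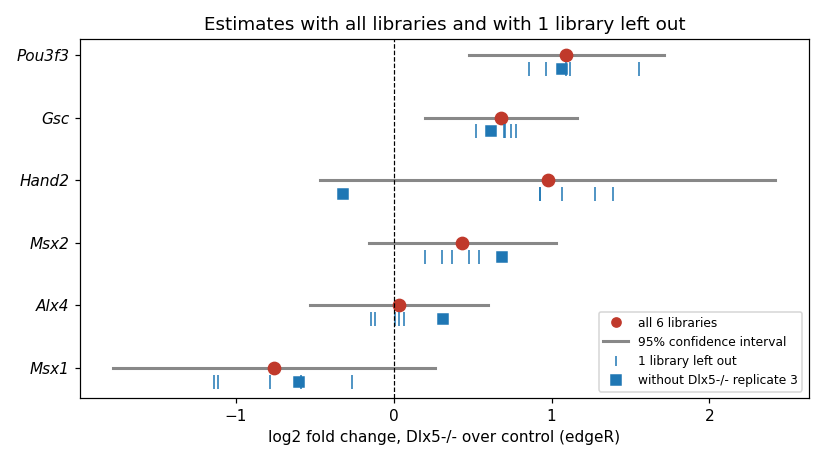
Log2 fold changes, Dlx5-/- over control (x axis), of the 6 jaw identity genes tested, with 95% confidence intervals (grey) and the estimates with 1 library left out (blue). The intervals of Pou3f3 (0.47 to 1.72) and Gsc (0.20 to 1.16) lie above 0 before any adjustment, and the square for Hand2, without Dlx5-/- replicate 3, lies at -0.32.

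Levels were compared between genes as CPM per kilobase of annotated exon. In Dlx5-/- palates Pou3f3 ranked first at 8.71 ± 0.363 CPM per kilobase, followed by Msx2 at 7.59 ± 2.62, Gsc at 7.57 ± 0.5002, Alx4 at 5.17 ± 1.85, Hand2 at 4.55 ± 4.64 and Msx1 at 3.46 ± 1.45 (SD, n = 3). Neighbours in that order overlapped in their libraries except Gsc and Alx4. In controls the order began with Msx1 at 5.86 ± 3.39 CPM per kilobase, then Msx2 at 5.54 ± 0.980, Alx4 at 5.01 ± 0.225, Gsc at 4.74 ± 0.949 and Pou3f3 at 4.09 ± 1.93 (SD, n = 3). These first 5 control levels overlapped from neighbour to neighbour. Hand2 followed at 2.37 ± 0.279, with no overlap with its neighbour Pou3f3. It did overlap Msx1, whose lowest control was at 2.61, against 2.69 for the highest control of Hand2. Hand1 and Gbx2 came last in both groups.

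The profiles of the 6 genes over the 6 libraries differed from each other. The likeness measure was the root mean square difference between profiles of log2(CPM + 1), each centred and divided by its SD. Of the 15 pairs among the 6 genes, Alx4 and Msx2 were the most alike (0.730), and Hand2 and Alx4 the least (1.79). Among 11577 other genes with at least 5 CPM, the profiles nearest to Pou3f3 were those of the linker histone genes Hist1h1e (0.0820) and Hist1h1b (0.0821) and of Tbl1x (0.119). Those nearest to Gsc were Haus7, Ash2l and Pard6g (0.138 to 0.161), and those nearest to Hand2 were Clstn3, Pde4a and Mkl2 (0.116 to 0.127). Nucb2, Pcdhga9 and Aqp1 were nearest to Alx4 (0.0832 to 0.115), Fbxo3, Rspo1 and Wrb to Msx1 (0.134 to 0.137), and Akt1, Ufc1 and Zfp65 to Msx2 (0.0455 to 0.199). With 6 libraries, many genes match any profile, and these are descriptions.

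Genes that act before or beside the 8 in the arches were counted from lists, and Dlx5 was the only listed gene that passed the test. Of 16 other lower jaw genes, 0 passed, with a median log2 fold change of -0.22, against 0.01 over all genes tested. Of 10 endothelin pathway genes 0 passed, with a median of 0.05. Ece1, the enzyme that activates endothelin, measured 84.6, 93.4 and 78.8 CPM in Dlx5-/- libraries and 107, 123 and 129 CPM in controls (log2 fold change -0.48; adjusted p = 0.0850, edgeR), and DESeq2 called it (adjusted p = 0.00343). Its groups did not overlap. The receptor gene Ednra measured 48.4, 51.4 and 56.8 CPM in Dlx5-/- libraries and 40.8, 40.8 and 45.9 CPM in controls (log2 fold change 0.30; adjusted p = 0.219, edgeR), again without overlap.

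Of 11 BMP ligands, receptors and Smads that act on Msx and Hand genes 0 passed, with log2 fold changes between -0.57 and 0.64 and a median of 0.07. Smad9, a mediator of BMP signals, had the smallest p, at 14.7, 14.9 and 11.5 CPM in Dlx5-/- libraries and 19.6, 19.8 and 21.4 CPM in controls (log2 fold change -0.57; adjusted p = 0.134, edgeR). At the other end of the range, the ligand gene Bmp5 measured 47.3, 32.8 and 33.3 CPM in Dlx5-/- libraries and 39.4, 13.1 and 20.6 CPM in controls (log2 fold change 0.64, SE 0.35; adjusted p = 0.502, edgeR), and its groups overlapped. The ligand gene Bmp4 measured 22.3, 17.3 and 17.9 CPM in Dlx5-/- libraries and 18.4, 18.8 and 18.5 CPM in controls. Of 11 BMP antagonists and feedback genes 0 passed, with a median of 0.13; the antagonist Chrdl1 had a log2 fold change of 0.69 (adjusted p = 0.148, edgeR).

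**Figure D5:**
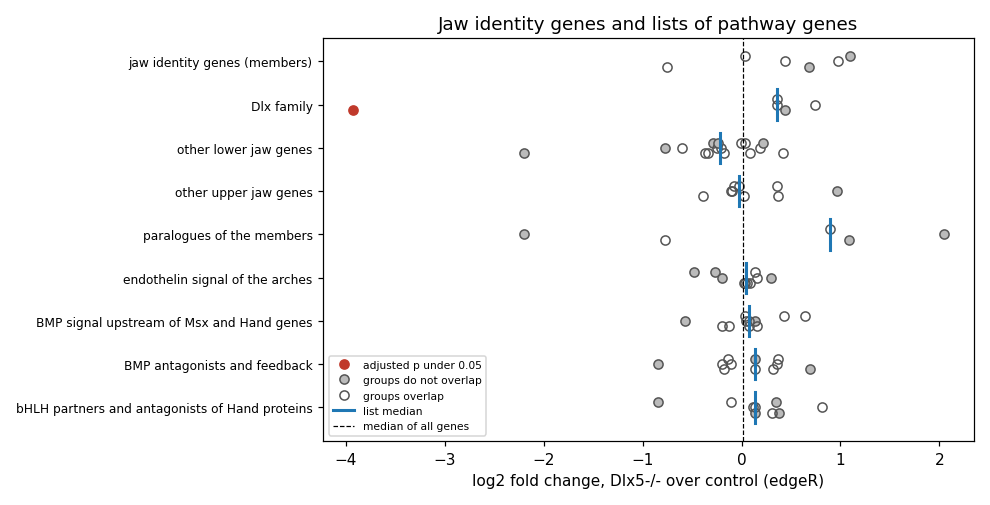
Log2 fold changes, Dlx5-/- over control (x axis), of the 6 tested jaw identity genes and of 8 lists of pathway genes, 1 point per gene that passed the filter. Filled grey points are genes whose groups do not overlap and the red point is Dlx5, at -3.93, the only gene past the threshold; blue lines are list medians, and the dashed line is the median of all genes tested (0.01).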

How the data were processed

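Soft palate RNA was sequenced from 3 Dlx5-/- and 3 control libraries, grouped by their titles. Per the labels' protocols, the back of the palate was cut off and libraries were made with a TruSeq mRNA kit. Per the submitters' processing notes, STAR 2.4.1d and Partek were used with mm10; for the annotation, counting settings and strand nothing is given in the sources used here. The deposited table holds estimated counts per gene. Of values above 0.5, 64.5% were whole within 0.001, and columns were not scaled to 1 total. The table has 1 more column, which fits no sample of the labels and was left out. Whether each library is a different embryo is not stated, and p-values cover only the spread among these libraries, which may be technical.

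Counts were rounded, filtered at a mean of 1 CPM and tested with edgeR 4.0.16 (R 4.3.3): TMM factors, quasi-likelihood with its default settings, no block, Benjamini-Hochberg over 16218 genes. SEs were derived from the F statistic. limma 3.58.1, DESeq2 1.42.0, other filters and normalizations, a replicate block and each library left out were alternatives. The code was tested on simulated data. Replicates differed by more than sampling noise (chi-square per degree of freedom 6.34 to 87.4). GENCODE M21 (GRCm38, known as mm10) gave coordinates and exon lengths. The members and all lists were chosen with earlier results of these data known. Besides the 8 members and the Dlx genes, up to 4 genes with the smallest p were eligible for naming from each list, up to 4 with the highest level from marker lists, and 3 nearest profiles per member. Bmp4, Bmp5, Twist2, Nkx2-5, Nppa, Gata4, Tbx5, Avil and Prph were named after their values were seen. A few genes that this rule names are not reported here. Figures were drawn with matplotlib 3.10.9.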

Additional observations from a re-analysis of the deposited data

How the results depend on the processing

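Processing choices changed how many genes passed, and the set tested was not always the 16218 genes of the default. With no filter more genes were tested, and with a filter of 5 CPM fewer. DESeq2 gave an adjusted p to 14614 genes, so the counts below are not shares of 1 set. Against 1 gene by default, edgeR called 41 with library totals in place of TMM, 679 with no filter, 74 with a filter of 5 CPM, 299 at a threshold of 0.1 and 66 with its newer quasi-likelihood fit (legacy off, added after seeing the data). DESeq2 called 501, and limma-trend 97 with a pseudocount of 1 and 96 with 0.5. With 1 library left out, 0 to 164 genes were called. Of the jaw identity genes, 1 was called with no filter, 1 by DESeq2 and 0 to 1 with 1 library left out; in each case it was Pou3f3, and the library was control 1. With median-of-ratios factors and without 3 rows of 18S rRNA and Y RNA, calls were as by default. The causes were not tested.

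Directions held for Pou3f3, Gsc, Msx1 and Msx2 in all 17 alternatives. Hand2 turned to -0.32 without Dlx5-/- replicate 3, and lay between -0.32 and 1.39 when any 1 library was dropped. Alx4 was -0.0151 with library totals, -0.0277 with limma-trend at a pseudocount of 1, -0.0293 at 0.5 and -0.0147 with the replicate block, and lay between -0.14 and 0.31 when any 1 library was dropped. Hand1 and Gbx2 were tested only with no filter, where Hand1 had an adjusted p = 0.0672 and Gbx2 0.9997 (edgeR). Of 23 other named genes examined under these alternatives, none passed by default. With no filter edgeR called 13 of them, and 4 at a threshold of 0.1. Ret alone was called by edgeR with library totals or without Dlx5-/- replicate 3. DESeq2 called 9 of 22, against 3.43% of all genes it adjusted. Over all genes, edgeR with no filter called 679, from 49492 rows of which 19622 were at 0 in all libraries and not tested. Many of these named genes were picked for a small p in these same data, so their counts are no independent result.

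Replicate numbers are shared by the groups, but same-numbered libraries did not deviate together over the genes tested (correlations -0.01, -0.01 and 0.02). So few libraries cannot exclude a pairing with a small effect. With the replicate block 0 genes were called, and 0 of the jaw identity genes. Depth limits Hand1 and Gbx2: 3 counts, the most that a count of 0 allows, are 0.226 to 0.431 CPM per library.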

Other observations

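Gata2 and Gata3, zinc finger factors that work beside Hand2 in sympathetic neurons and act in many epithelia, had higher estimates in Dlx5-/- palates without following Hand2 across the libraries. Gata3 measured 37.9, 17.9 and 37.5 CPM in Dlx5-/- replicates 1, 2 and 3 and 17.1, 2.52 and 2.59 CPM in controls 1, 2 and 3 (log2 fold change 2.07, SE 0.66; adjusted p = 0.229, edgeR). Gata2 measured 23.8, 18.5 and 17.96 CPM in Dlx5-/- libraries and 13.6, 7.39 and 12.1 CPM in controls (log2 fold change 0.87; adjusted p = 0.158, edgeR). Groups did not overlap for either gene, and control 1 was the highest control for both, as for Pou3f3. The neuronal genes Ret and Th of the same list of 10 markers lay the other way, with log2 fold changes of -1.35 (adjusted p = 0.0806, edgeR) and -1.09 (0.172). Of the 10 markers 9 passed the filter, and none of these passed the test with all libraries. Ret passed without Dlx5-/- replicate 3 (log2 fold change -1.07; adjusted p = 0.0338, edgeR), and its adjusted p over all alternatives was between 8.5e-06 and 0.324. DESeq2 called Ret, Th and Gata2, and edgeR with no filter called these and Gata3.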
